A study of Homo sapiens with 11 samples.

Results

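A NAGNAG acceptor is a 3′ splice site at which a pair of AG dinucleotides lie 3 nucleotides apart, so that splicing to the upstream AG makes the exon 3 nucleotides longer than splicing to the downstream AG. The deposited comparison of S34F with wild-type cells listed 17462 unique NAGNAG events, and the 13886 events (79.5%) with at least 10 reads on each side are described here, out of 79960 events of 5 types that met the same minimum. The cells were HCC78, an established lung adenocarcinoma line with its own endogenous U2AF1 S34F allele and a fusion of SLC34A2 to ROS1. Doxycycline-inducible, FLAG- and HA-tagged wild-type or S34F U2AF1 was introduced into it, and the endogenous S34F was therefore shared by every group, the wild-type group included. RNA-Seq libraries numbered 2 for the parental line, 2 for WT dox+ and 2 for S34F dox+, and without doxycycline there were 2 of WT dox- and 1 of S34F dox-. By the labels, S34F made up 62 and 65% of U2AF1 RNA in S34F dox+, 12 and 14% in WT dox+, 33 and 33% in WT dox-, 28% in S34F dox- and 32 and 32% in the parental line. The splicing table has 1 S34F side and 1 wild-type side and names neither the libraries behind them nor their doxycycline status, so the splicing values have no replicate check and the spread between cultures cannot be given.

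U2AF1 is the small subunit of the U2 auxiliary factor and contacts the AG at the end of the intron, while its partner U2AF2 binds the polypyrimidine tract just before it. Serine 34 lies in the first zinc finger of U2AF1, and substitutions there are known for altering which base is preferred before the AG. Both AGs of a NAGNAG are served by the same donor and nearly the same polypyrimidine tract, and the product differs by the gain or loss of 1 amino acid, or by a changed amino acid at the exon junction, where the site is in coding sequence. The comparison asks whether the choice between such neighbouring acceptors differed between cells expressing the mutant and the wild-type protein.

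In every event the first-listed acceptor was the upstream one and the spacing was 3 nucleotides. PSI, the fraction of transcripts assigned to the first-listed isoform, is therefore the usage of the upstream acceptor (the longer exon), on a scale from 0 to 1. The events lay on both strands (7091 plus and 6795 minus), 13285 of them (95.7%) in genes listed as protein-coding, and they named 8054 gene symbols. A single event was listed for 4102 genes and at least 5 for 516. SYNE1, which encodes a giant nuclear envelope spectrin-repeat protein, had 20, EEF1D, a translation elongation factor subunit, 17, and EIF2B5, a subunit of the initiation factor exchange complex, and JUP, the junction protein plakoglobin, 16 each. An event listed with more than 1 gene (2074 events) counts for each of them. Those of EIF2B5 include at least 1 that is also listed under EIF4G1. Neither the acceptor sequences nor whether a site lies in coding sequence or a UTR was analysed here.

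PSI was low at most events with many reads, which in the reading above makes the downstream acceptor the major one. Median PSI was 0.39 with S34F and 0.37 with wild-type, and the 10th and 90th percentiles were 0.04 and 0.61 in S34F and 0.03 and 0.62 in wild-type. A PSI of at most 0.10 was listed for 2976 events (21.4%) in S34F and for 3477 (25%) in wild-type, whereas near-complete use of the upstream acceptor (PSI of at least 0.90) was listed for only 163 (1.17%) and 198 (1.43%). Among the 2451 events with at least 1000 reads on each side, PSI was at most 0.10 in 53.4% in S34F and 57.4% in wild-type. It was at least 0.90 in 2.94% and 3.43%, and lay between these limits in 43.7% and 39.2%.

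Levels moved with the number of reads. The side with fewer reads set the class. From 10 to 49 reads, the median wild-type PSI was 0.49, and 67.8% of the 3679 events lay between 0.40 and 0.60. From 300 to 999 reads the median was 0.15, and at 3000 reads and above it was 0.04, with 7.66% of 666 events between 0.40 and 0.60. Of the 3576 events left out for fewer than 10 reads on a side, 78.1% had a wild-type PSI between 0.40 and 0.60. A PSI near the middle of the scale was thus the usual value where reads were few, and the part of the number of reads in it was not tested.

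**Figure D1:**
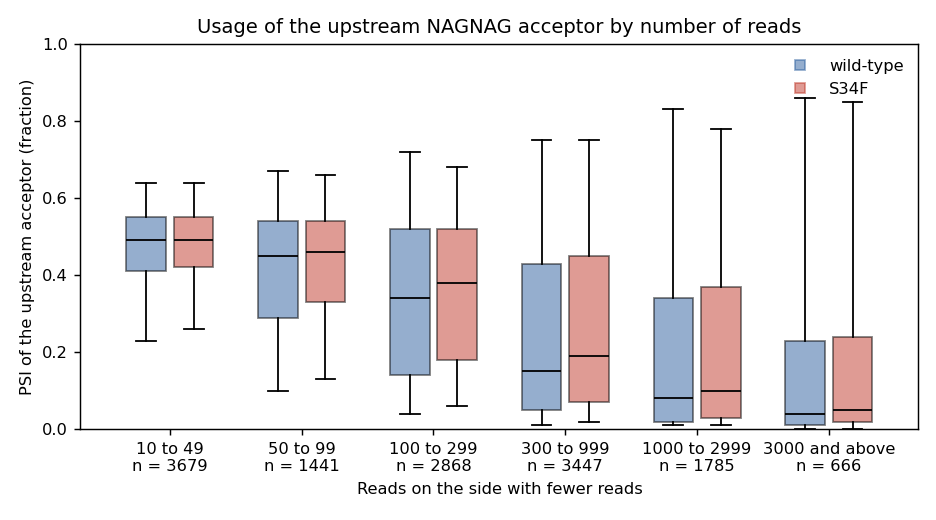
PSI, read as usage of the upstream acceptor (y axis, fraction), in classes of reads on the side with fewer reads (x axis), for wild-type (blue) and S34F (red). Boxes span the quartiles over events, lines are medians and whiskers the 5th and 95th percentiles. Medians fall from 0.49 in the class with 10 to 49 reads to 0.04 in wild-type in the class with 3000 reads and above.

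The reads listed for an event were not those of its junctions alone. The 3 events of ATN1, for example, were listed with 2181, 2182 and 2187 S34F reads, though their acceptors lie kilobases apart. Over all events, the median was 203 reads in S34F (quartiles 47 and 663) and 290 in wild-type (quartiles 63.25 and 972), and the median ratio of S34F to wild-type reads was 0.691. How many reads spanned either junction cannot be had from the table, so no counting interval is given for a PSI.

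A middle PSI was also listed at some events with many listed reads. Since those are not reads of the junctions, use of both acceptors is not shown by these values. The 8 deepest events with a PSI between 0.30 and 0.70 on both sides, chosen after their values were seen, were in HSP90AA1, MKI67, MUC4, PLEC, RPLP0, PRKDC, RPL3 and EIF4G1. The event of HSP90AA1, the cytosolic chaperone, had a PSI of 0.66 with S34F (34422 reads) and 0.69 with wild-type (55016 reads). MKI67, the proliferation antigen, was at 0.45 and 0.48, and MUC4, a membrane mucin, at 0.43 and 0.36. In RPL3, a protein of the large ribosomal subunit, PSI was 0.35 with S34F and 0.52 with wild-type, a difference of -0.17 with a Bayes factor of 0.94. The other 7 differed by at most 0.07 in either direction.

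Most events differed little between S34F and wild-type. The difference, S34F minus wild-type, had a median of 0.01, quartiles of -0.05 and 0.08, 5th and 95th percentiles of -0.21 and 0.24, and an SD over events of 0.132. PSI was higher in S34F at 7415 events (53.4%), lower at 5335 (38.4%) and equal to 2 decimals at 1136 (8.18%). Across events, Pearson's r between S34F and wild-type PSI was 0.836, a description over events that share libraries and, often, genes. No event went from a PSI of at most 0.10 on one side to at least 0.90 on the other. From nearly unused in wild-type, 758 events had a PSI above 0.10 in S34F, and 257 events were the other way round.

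Events with a higher PSI in S34F outnumbered those with a lower one where the upstream acceptor was the minor one. Where the mean PSI of both sides was at most 0.10, 1775 events were higher in S34F, 491 lower and 768 equal, with a median difference of 0.01, which is the last decimal the table gives. From a mean PSI above 0.10 to 0.30, 1598 were higher and 901 lower, with a median of 0.04, and from above 0.30 to 0.50, the class with the most events (4466), 2356 were higher and 2000 lower, with a median of 0.02. From above 0.50 to 0.70 the counts were 1507 and 1653, and from above 0.70 to under 0.90 they were 134 and 209, with a median of -0.03. With at least 1000 reads on each side, 690 of 1334 events in the lowest class were higher in S34F and 200 lower, in the class above 0.30 to 0.50 149 of 268 were higher and 117 lower, with a median of 0.04, and in the class above 0.70 and under 0.90, 32 of 99 were higher and 59 lower. At both ends of the scale PSI more often lay nearer its middle in S34F, the side with fewer reads. The part of that difference in reads was not tested.

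The size of a difference also moved with the reads. The median absolute difference was 0.07 over all events, 0.09 from 10 to 49 reads, 0.05 from 300 to 999 and 0.01 at 3000 and above. Among the 2451 events with at least 1000 reads on each side, 68.8% lay within 0.05 of each other, 297 were higher in S34F by at least 0.10 and 214 lower. A difference of at least 0.10 was listed for 5337 events in all (38.4%), 2973 higher and 2364 lower. The Bayes factor, the caller's odds that the sides differ against that they do not, was under 1 for 2737 of them, so that these gave more weight to no difference. The median Bayes factor over all events was 0.77.

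Past both thresholds of the study's rule, a difference in PSI of 0.10 or more together with a Bayes factor of 5 or more, were 43 events (0.31%). The upstream acceptor was used more in S34F at 24 of them (0.173%) and less at 19 (0.137%). They named 51 gene symbols, and 40 were in protein-coding genes (93%, against 95.7% of all events). Their median absolute difference was 0.41. Among the 24, median PSI was 0.185 in wild-type and 0.6 in S34F, and at 15 the upstream acceptor went from the minor to the major one. Among the 19, median PSI was 0.65 in wild-type and 0.18 in S34F, and 10 went from major to minor. At least 100 reads were present on each side at 37 of the 43. A Bayes factor of at least 20 was listed for 17, and 20 had one under 10.

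**Figure D2:**
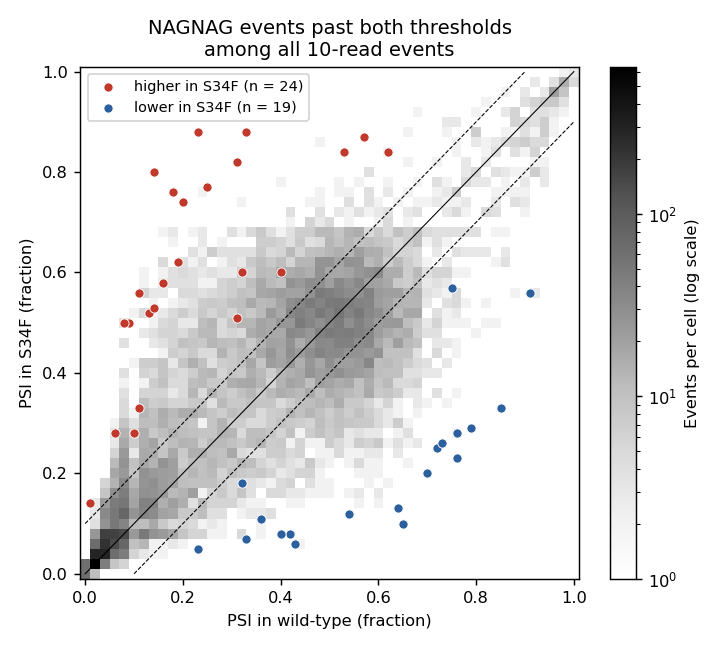
PSI in wild-type (x axis, fraction) against PSI in S34F (y axis, fraction) for 13886 NAGNAG events; grey cells give the number of events on a log scale, the solid line equality and the dashed lines a difference of 0.10. The 24 events past both thresholds and higher in S34F (red) and the 19 lower (blue) lie outside the dashed lines, as do many more events that did not pass the Bayes factor.

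Of the 43 events, 5 had a Bayes factor of at least 100, and all 5 used the upstream acceptor more in S34F. The 4 described here are RANBP1, FUBP1, PDCD5 and PGAM5. RANBP1, which encodes a Ran-binding protein of nuclear transport, had the highest, 3234.58. Its acceptors at positions 20114475 and 20114478 of chromosome 22 (plus strand, donor at 20113891) had a PSI of 0.51 with S34F (1426 reads) and 0.31 with wild-type (2335 reads). FUBP1, a single-strand DNA- and RNA-binding protein known as a regulator of MYC, was at 0.84 and 0.62 with a Bayes factor of 1688.56 (chromosome 1, minus strand, acceptors at 78432785 and 78432782, donor at 78433311). In both genes the 2 acceptors were in use on both sides, and the shift was one of proportion.

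PDCD5, an apoptosis-related protein, had the highest difference of all events. Its PSI was 0.80 with S34F (103 reads) and 0.14 with wild-type (115 reads), with a Bayes factor of 503.44 (chromosome 19, plus strand, acceptors at 33075861 and 33075864, donor at 33073138). The major acceptor was thus the upstream one in S34F and the downstream one in wild-type. PGAM5, a mitochondrial phosphatase whose event is also listed under its neighbour PXMP2, was at 0.58 and 0.16, with a Bayes factor of 133.01 (chromosome 12, plus strand, acceptors at 133294573 and 133294576, donor at 133294384).

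The other large increases had lower Bayes factors. ATP11A, a phospholipid flippase of the plasma membrane, had a PSI of 0.88 with S34F and 0.23 with wild-type (2283 and 3135 reads), and a Bayes factor of 16.64. WDTC1, a WD-repeat protein, was at 0.76 and 0.18 (Bayes factor 7.33) and ZBTB37, a zinc-finger protein, at 0.88 and 0.33 (29.26). SLC26A6, an anion exchanger, was at 0.82 and 0.31 (23.38), on 57 and 53 reads. All 4 had the downstream acceptor as the major one in wild-type only.

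Among signalling and trafficking genes, CASP10, an initiator caspase, had a PSI of 0.62 with S34F and 0.19 with wild-type (Bayes factor 5.30). SLC9A3R2, a scaffold of membrane transporters, was at 0.56 and 0.11 (5.17). SEC31A, a coat protein of vesicles that leave the endoplasmic reticulum, was at 0.50 and 0.08 (8.67), and ARHGAP5, a GTPase-activating protein, at 0.53 and 0.14 (34.79). For cell division genes, FOXM1, a transcription factor of the G2 and M phases, was at 0.52 and 0.13 (8.95). STIL, a centriole duplication factor, was at 0.84 and 0.53 (5.92). RPS15, a protein of the small ribosomal subunit, was at 0.87 and 0.57 (25.70) with 3035 and 4127 reads. The non-coding TMEM161B-AS1 (0.74 and 0.20, Bayes factor 16.52) and LINC00623 (0.77 and 0.25, Bayes factor 6.20) rested on 14 to 21 reads a side. AC010642.1, listed with ERVK3-1, was at 0.50 and 0.09 (5.65). The event listed under ATP8B1, another flippase, and 2 non-coding genes was at 0.60 and 0.40 (14.12). For genes that overlap others, the table does not tell from which gene the reads came.

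**Figure D3:**
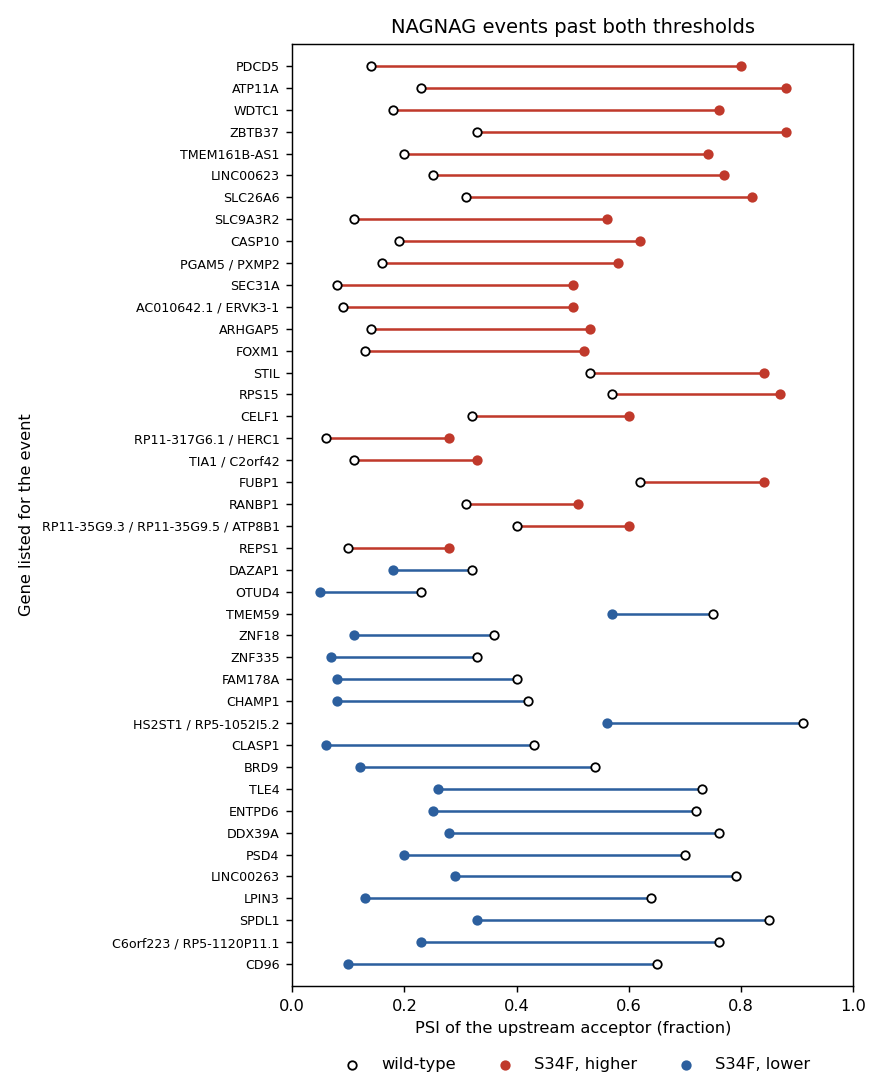
PSI, read as usage of the upstream acceptor (x axis, fraction), for wild-type (open circles) and S34F (filled circles). Shown are 42 of the 43 events past both thresholds, ordered by difference, with the genes listed for each. Differences run from 0.66 in PDCD5 to -0.55 in CD96, and each side is a single value without a replicate.

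At the 19 events with lower usage of the upstream acceptor in S34F, Bayes factors reached 32.73. PSD4, an exchange factor for the small GTPase ARF6, had that value, with a PSI of 0.20 with S34F (502 reads) and 0.70 with wild-type (709 reads; chromosome 2, plus strand, acceptors at 113955324 and 113955327, donor at 113955211). BRD9, the bromodomain subunit of a chromatin remodelling complex, was at 0.12 and 0.54 with a Bayes factor of 29.50 (633 and 890 reads; chromosome 5, minus strand, acceptors at 886822 and 886819, donor at 887476). In both, the downstream acceptor took over as the major one in S34F.

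Genes of the spindle and its attachment were among the 19. SPDL1, which recruits dynein to kinetochores, had a PSI of 0.33 with S34F and 0.85 with wild-type (Bayes factor 9.13). CHAMP1, a zinc-finger protein of kinetochore-microtubule attachment, was at 0.08 and 0.42 (22.23), and CLASP1, a microtubule plus-end protein, at 0.06 and 0.43 (10.64). No list of such genes was drawn up for this comparison, and the 3 were grouped after their values were seen.

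Lipid, sugar and nucleotide enzymes were represented by LPIN3, a phosphatidate phosphatase (0.13 and 0.64, Bayes factor 8.06), and HS2ST1, a heparan sulfate sulfotransferase (0.56 and 0.91, Bayes factor 8.52). ENTPD6, a nucleoside diphosphatase, was at 0.25 and 0.72 (Bayes factor 6.75). DDX39A, an RNA helicase of mRNA export, was at 0.28 and 0.76 (Bayes factor 5.48). TLE4, a transcriptional co-repressor, was at 0.26 and 0.73 with the lowest Bayes factor of the 43, 5.03. The non-coding LINC00263 was at 0.29 and 0.79 (6.51), C6orf223 at 0.23 and 0.76 (7.67), and FAM178A at 0.08 and 0.40 (15.74). The deubiquitinase OTUD4 had a PSI of 0.05 and 0.23 (Bayes factor 20.65), and TMEM59, a membrane protein, 0.57 and 0.75 (24.03). The lowest of the decreases in size was that of the RNA-binding protein DAZAP1, from 0.32 in wild-type to 0.18 in S34F (Bayes factor 5.58).

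The largest decrease was in CD96, an immunoglobulin-family receptor known from T and NK cells, and of the 43 events it had the most unequal reads. PSI was 0.10 with S34F (539 reads) and 0.65 with wild-type (16 reads), with a Bayes factor of 5.99 (chromosome 3, plus strand, acceptors at 111297874 and 111297877, donor at 111286494). The wild-type value rests on few reads, where middle values were usual. In the expression table, in FPKM (a level scaled to transcript length and library size), CD96 was at 19.46 and 18.93 in S34F dox+, 0.07 and 1.17 in WT dox+, 0.04 and 1.17 in WT dox-, 11.73 in S34F dox-, and 0.02 and 0.12 in the parental line. Both S34F dox+ libraries and the S34F dox- library were thus above all 6 others, with or without doxycycline. The summed level of 8 other markers of T and NK cells was 3.48 and 8.08 FPKM in S34F dox+ and 3.92 and 5.24 in WT dox+. It was 0.6 in S34F dox-. Of the 9 libraries, 8.08 was the highest sum and 0.6 the lowest. The 8.08 was that of S34F dox+ replicate 2, which also had the most genes at 1 FPKM or more (20896). PTPRC, CD3E and CD3G reached their highest levels, 2.71, 1.67 and 1.61 FPKM, in S34F dox+ libraries. CD2, CD3D, GNLY, KLRD1 and NKG7 had their highest levels in other libraries, and stayed at or under 1.18 in every library. The part of such cells in the CD96 values was not tested. These markers were listed after the CD96 values were seen.

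The Bayes factor was passed without the difference by 2 events. JAK1, a receptor-associated tyrosine kinase, had a PSI of 0.01 with S34F and 0.09 with wild-type (Bayes factor 175.95), and RPS6, a protein of the small ribosomal subunit, 0.03 and 0.01 (181.72) at 21335 and 32509 reads. They were named after their values were seen. At the 10-read minimum, the 230 events with exactly that number on the lower side had a median absolute difference of 0.08, and the 232 events with 1 read less had 0.1. Just inside it, the events of A2M-AS1 and ABI3 had a PSI of 0.62 and 0.55 in S34F and 0.48 and 0.46 in wild-type, and just outside it, those listed under CFTR and MAST3 had 0.44 and 0.57 in S34F and 0.57 and 0.53 in wild-type. None of the 3576 events left out was past both thresholds.

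The same acceptor pair can be joined to several donors, and each junction pair is an event of its own. The 13886 events held 11274 distinct acceptor pairs, of which 1839 had several donors (4451 events, up to 12 donors a pair). Within such a pair, the median range of wild-type PSI over donors was 0.24 and that of S34F PSI 0.22, against a median absolute difference between S34F and wild-type of 0.09 at the same events. In the 239 pairs whose events had at least 1000 wild-type reads, the range was 0.23 and the difference 0.07. The range is taken over 2 or more donors and the difference over 2 values, so the pair is given side by side without a test.

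The 43 events past both thresholds lay at 43 different acceptor pairs. At 12 of these, 21 further events with other donors were measured. None of the 21 was past both thresholds, their highest Bayes factor was 3.98, and 10 had the sign of the event that was. FOXM1 is an example, with a PSI of 0.52 with S34F and 0.13 with wild-type from the donor at 2975559, but 0.02 and 0.02 from the donor at 2974521, at 2171 and 3590 reads. ATP11A was at 0.88 and 0.23 from one donor and at 0.55 and 0.61 from another. CLASP1 had 3 further donors, whose differences were -0.11, 0.01 and -0.05, and SEC31A had 5, whose differences ran from -0.02 to 0.37. The PSI listed for 1 donor could thus differ from that listed for another donor at the same acceptor pair. The reads listed were nearly the same for both ATP11A donors, 2283 and 2274 in S34F. How many reads spanned the junctions of each donor is not known, so whether acceptor choice depended on the donor was not tested.

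Differences were also compared by intron length. The 3473 events in the lowest quartile of intron length (up to 527 nucleotides) had a median absolute difference of 0.06 and 14 events past both thresholds (0.403%), and the 3472 in the highest quartile (from 5559 nucleotides) 0.075 and 9 (0.259%). The median intron was 890 nucleotides at the 43 events and 1723.5 at all events.

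Event types differed in the share past both thresholds. It was 0.31% for NAGNAG events, against 1.19% for alternative 3′ splice sites (123 of 10357), 1.24% for alternative 5′ splice sites (141 of 11391), 1.47% for skipped exons (576 of 39192) and 2.73% for retained introns (140 of 5134). For the most like group, alternative 3′ splice sites 4 to 12 nucleotides apart, it was 0.533% (11 of 2064). These are shares of events that share genes and reads, and no test of the difference was made. For alternative 3′ and 5′ splice sites with several isoforms, the isoform with the highest Bayes factor was taken, which can raise their shares. No such choice was made for NAGNAG events or for the sites 4 to 12 nucleotides apart. Differences of at least 0.10 went the other way at high read numbers. At 3000 reads and above they were listed for 15.3% of NAGNAG events, 4.03% of the acceptors 4 to 12 nucleotides apart, 3.9% of all alternative 3′ splice sites and 6.16% of skipped exons. Past both thresholds were 0.45% (3 of 666), 0.806% (1 of 124), 0.887% (5 of 564) and 1.46% (27 of 1852). Most of these counts are too small to rank the groups.

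**Figure D4:**
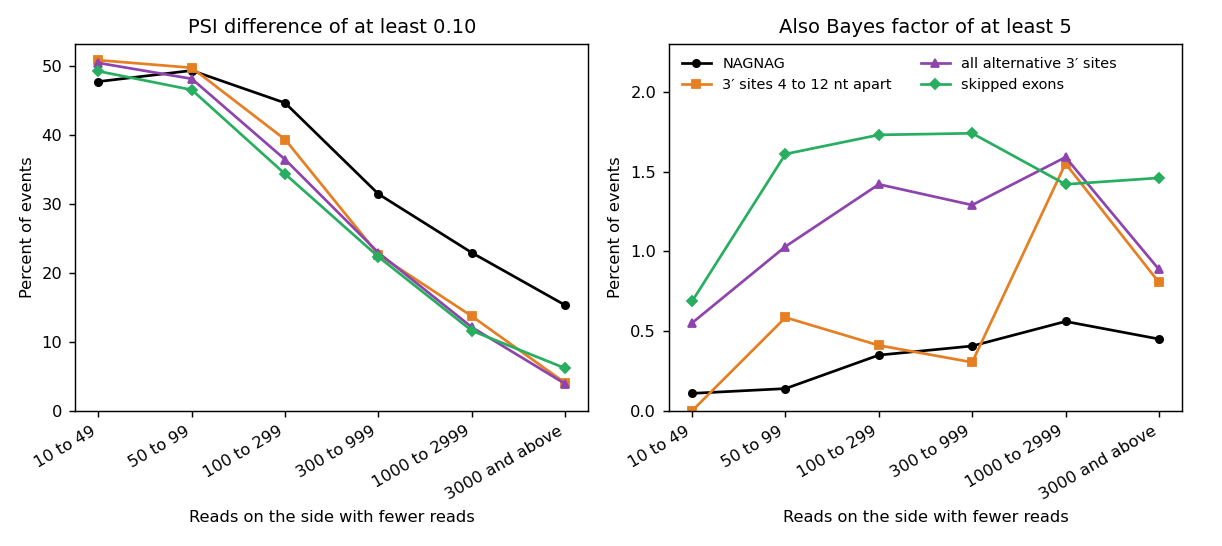
Percent of events (y axes) with a PSI difference of at least 0.10 (left) and with a Bayes factor of at least 5 in addition (right), by reads on the side with fewer reads (x axes), for 4 groups of events. NAGNAG events (black) lie highest on the left from 100 reads on, at 15.3% in the class with 3000 reads and above, and at 0.45% on the right in the same class.

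Events in genes of chosen groups were counted against the 0.31% of all NAGNAG events. Of the 59 SR and hnRNP proteins and other splicing regulators, 34 had 75 events, and 2 were past both thresholds (2.67%), both higher in S34F. They were CELF1, an RNA-binding regulator of splicing and mRNA decay, with a PSI of 0.60 with S34F and 0.32 with wild-type (1500 and 2163 reads, Bayes factor 24.29), and TIA1, a splicing regulator and stress granule protein, with 0.33 and 0.11 (530 and 858 reads, Bayes factor 24.96). The TIA1 event is also listed under C2orf42. Other RNA-binding proteins past both thresholds were not in the list, among them FUBP1, higher in S34F (0.84 and 0.62), and DAZAP1, lower (0.18 and 0.32). The share and the direction thus depend on how the list was drawn up. Of 63 chromatin regulators with 210 events, BRD9 alone was past both thresholds (0.476%).

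Core spliceosome and 3′ splice site factors had 86 events in 34 genes, cancer drivers of lung adenocarcinoma 86 in 36, and genes of epithelial-mesenchymal transition and the cytoskeleton 146 in 54. None of these was past both thresholds. Median absolute differences were 0.03, 0.06 and 0.04, against 0.07 over all events. With 43 events past the thresholds in all genes, such counts say little about a list.

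Genes long known for a NAGNAG acceptor had 21 events in 7 of the 9 genes listed, among them ATN1, BRCA1, IGF1R, ING4, ITGAM and STAT3. PAX3 and PAX7 had under 10 reads on a side. None of the 21 was past both thresholds. A difference of at least 0.10 was listed for 14 (66.7%, against 38.4% of all events), and the median absolute difference was 0.12, against 0.07. The 21 were higher in S34F at 10, lower at 10 and equal at 1, and their highest Bayes factor was 2.12. BRCA1 held 7 of them. All events of these genes that met the read minimum are counted, and whether the known sites are among them was not checked. In STAT3, a transcription factor of cytokine signalling, PSI was 0.47 with S34F and 0.54 with wild-type at one event (2896 and 3960 reads) and 0.61 and 0.79 at the other (145 and 247 reads). IGF1R, the insulin-like growth factor receptor, had events at 0.87 and 0.91, 0.21 and 0.06, and 0.42 and 0.21, and ING4, a tumour suppressor of the ING family, one at 0.63 and 0.34 on 80 and 99 reads.

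Expression of the genes that hold these events was compared between S34F dox+ and WT dox+ with limma on log2(FPKM + 1), over the 15179 genes whose mean reached 1 FPKM. At an adjusted p under 0.05, 8 genes (0.0527%) differed, 3 higher (0.0198%) and 5 lower (0.0329%) in S34F dox+. These counts did not hold in most alternatives. They were 0 and 0 with a replicate block (458 and 320 at an unadjusted p under 0.05), 0 and 4 with a pseudocount of 0.1, 0 and 3 without a minimum FPKM, 0 and 13 or 0 and 1 without WT dox+ replicate 1 or 2, and 20 and 9 or 8 and 4 without S34F dox+ replicate 1 or 2. The adjusted values come from 2 libraries a group, and nothing in the labels says that these came from separate cultures. U2AF1 itself was at 164.44 and 222.76 FPKM in S34F dox+, 277.6 and 299.05 in WT dox+, and 102.76 to 115.06 in the 5 other libraries, so both induced lines lay above the others and the wild-type line above the S34F line. Epithelial and lung markers fitted the label, with KRT7 at 2872.82 to 4195.52 FPKM, EPCAM at 407.23 to 545.24 and NKX2-1 at 49.05 to 67.8 over the 9 libraries, while the surfactant gene SFTPB was near 0, at 0.25 to 2.05. S34F dox+ replicate 2 stood apart, with 20896 genes at 1 FPKM or more against 13661 to 17716 in the other 8 libraries. In such bulk RNA a lower level per cell and fewer cells with the transcript cannot be told apart.

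Of the 8054 gene symbols with NAGNAG events, 6141 were tested, 1 was higher and none lower in S34F dox+, with 418 at an unadjusted p under 0.05 (6.78% of all genes tested had one) and a median log2 fold change of 0.03, as over all genes (0.03). Of the 51 symbols of the 43 events, 47 were tested and none passed in limma, with 3 at an unadjusted p under 0.05. Their median log2 fold change was 0.06 and they ran from -1.15 (LINC00623) to 3.73 (CD96). CD96 had a log2 fold change of 3.73 ± 0.45 (SE) and an adjusted p of 0.0654 in limma. TLE4 was at 15.8 and 14.48 FPKM in S34F dox+ and 7.5 and 5.92 in WT dox+ (log2 fold change 1.07 ± 0.17, limma adjusted p = 0.234), and ERVK3-1 at 16.17 and 16.24 and 22.07 and 27.97 (-0.59 ± 0.15, 0.536).

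The 4 genes named above for a Bayes factor of at least 100 had like levels in both groups. RANBP1 was at 321.62 and 372.29 FPKM in S34F dox+ against 365.96 and 435.34 in WT dox+, FUBP1 at 128.05 and 146.14 and 138.22 and 147.38, PDCD5 at 133.97 and 114.85 and 100.61 and 122.06, and PGAM5 at 24.51 and 36.8 and 21.32 and 28.62. The groups overlapped in each, and log2 fold changes lay between -0.21 (RANBP1) and 0.27 (PGAM5). For CELF1 the log2 fold change was 0.27 ± 0.15 (SE), for TIA1 -0.15 ± 0.16 and for BRD9 -0.17 ± 0.20.

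**Figure D5:**
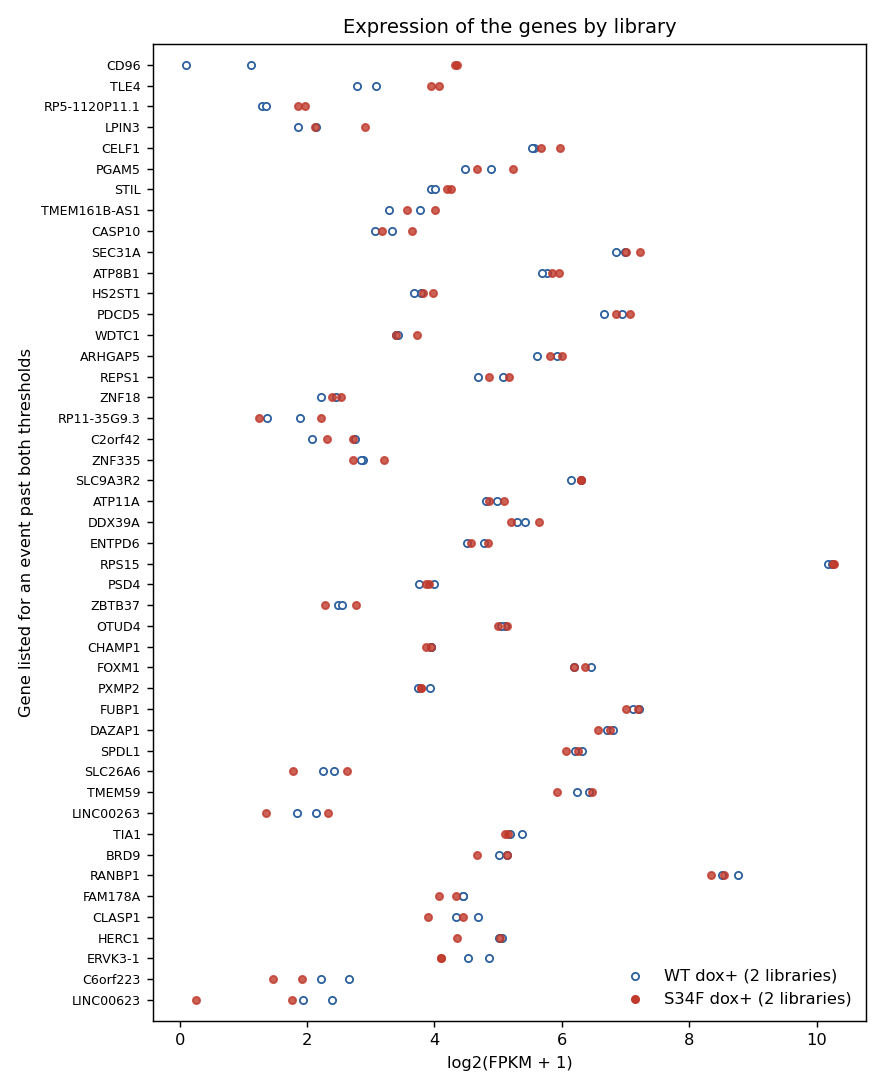
Expression as log2(FPKM + 1) (x axis) of 46 of the 47 tested genes listed for the 43 events, in the 2 WT dox+ libraries (open blue) and the 2 S34F dox+ libraries (filled red), ordered by log2 fold change. CD96 lies at the top at 19.46 and 18.93 FPKM for S34F dox+ and 0.07 and 1.17 for WT dox+, while most genes lie close together.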

How the data were processed

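The authors trimmed paired-end total RNA reads, aligned them with STAR 2.3.0 and computed gene FPKM and TPM with RSEM 1.2.29, both of which they deposited. The processing notes of the labels name GRCh37 (hg19) for the RNA-Seq libraries, the tables name no build, and positions are printed as the event names give them. With MISO the authors compared S34F and wild-type over annotated events and deposited a PSI fraction, a Bayes factor (a ratio of odds) and a read count for each side, along with their own PSI difference, which was not used. How replicates were combined is not stated in the sources used here.

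Repeated entries were merged to 17462 unique events, and the 13886 with at least 10 reads on each side were kept. PSI differences were taken as S34F minus wild-type from the deposited PSI, which has 2 decimals. That PSI is the share of the first-listed isoform was checked only on retained introns, whose first-listed form is the spliced one. Their median PSI was 0.93 in wild-type over 830 deep events. This does not show which acceptor of a NAGNAG pair PSI counts, and no check was made on acceptor pairs. An event was counted past both thresholds at a difference of 0.10 or more with a Bayes factor of 5 or more. The Bayes factor is the caller's own output and was not recomputed. Alternative 3′ and 5′ splice site files hold values for several isoforms in one field, and there the isoform with the highest Bayes factor was used.

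For expression, limma 3.58.1 (R 4.3.3) was fitted with trend on log2(FPKM + 1) over 9 libraries in 5 groups without covariates, for the 15179 of 57773 genes whose mean reached 1 FPKM, with Benjamini-Hochberg adjustment. No counts of reads per gene were given, so library depth is unknown. On simulated data of the same size the fit recovered 195 of 200 genes changed by 3 on the log2 scale, with 9 false calls. Tables were handled in Python 3.11.15 with pandas 2.3.3.

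Named, apart from items that are not reported here, are the events past both thresholds, up to 15 with the largest increase and 15 with the largest decrease, events of known tandem acceptor genes, events past the thresholds in the other gene lists, and 2 events each just inside and just outside the read minimum. Outside that rule, the events of RANBP1, FUBP1, RPS15, ATP8B1, OTUD4, TMEM59 and DAZAP1, all past both thresholds, were named after their values were seen. The events described and the gene lists were chosen with earlier results of these data known. The crosslinking samples were not used here.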

Additional observations from a re-analysis of the deposited data

How the results depend on the processing

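The counts of NAGNAG events depend on the Bayes factor. Against 24 events higher and 19 lower in S34F, a Bayes factor of at least 10 left 14 and 9, one of at least 20 left 11 and 6, and no minimum gave 2973 and 2364. Differences of at least 0.05 or 0.20, minimums of 20 or 100 reads on each side or 10 in all, and leaving out events with several isoforms (there were none) kept both counts within 1.5 times. The median absolute difference was 0.05 with at least 100 reads on each side, against 0.07, and the median difference stayed between 0.01 and 0.02.

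Between S34F dox+ and WT dox+, limma called 3 genes higher and 5 lower. They were 0 and 4 with a pseudocount of 0.1 (568 and 424 at an unadjusted p under 0.05), 0 and 3 without a minimum FPKM (1454 and 1147), 5 and 5 after quantile normalization and 1 and 5 with TPM. TPM moved the median log2 fold change of all genes from 0.03 to -0.07. With a replicate block over the 4 dox+ libraries they were 0 and 0 (458 and 320 unadjusted). The numbers were not taken to pair the libraries, since with 2 pairs the deviations of like-numbered libraries correlated at 0.04 over genes. Leaving out 1 dox+ library gave 0 to 20 higher and 1 to 13 lower. Without WT dox+ replicate 1 the counts were 0 and 13, without WT dox+ replicate 2 they were 0 and 1, without S34F dox+ replicate 1 they were 20 and 9, and without S34F dox+ replicate 2 they were 8 and 4. The causes were not tested. Such lone libraries are assumed to vary like the other groups.

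Of the 47 tested genes with events past both thresholds, 22 kept the sign of their fold change in every alternative, and 1, CD96, passed in any, after quantile normalization (log2 fold change 3.82, adjusted p 0.0205).

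The splicing table has no replicates, no library was left out there, and the reads of a gene do not show how well 1 junction was covered.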
